A study of Mus musculus with 12 samples.

Results

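Glycolysis, lactate and pyruvate handling is covered here by 35 genes out of the 17990 genes of the deposited mouse RNA-seq tables. They were chosen by name, from glucose entry through the glycolytic steps to lactate exchange and the pyruvate dehydrogenase complex, and their transcript rows (124 in all, 1 to 9 for each gene) were summed per gene. The tissue was dentate gyrus (DG), the hippocampal site of postnatal neurogenesis, or subventricular zone (SVZ), the neurogenic wall of the lateral ventricle, in each case stem and progenitor cells with their surrounding cells. Knockout (KO) mice carried hGFAP/+;Dpy30F/- and control mice hGFAP/+;Dpy30F/+, with 3 libraries in each of DG KO, DG control, SVZ KO and SVZ control. All libraries therefore carry hGFAP and an F allele of Dpy30, whose protein belongs to every SET1/MLL complex, the enzymes that methylate histone H3 at active promoters. The other Dpy30 allele is written - in KO and + in control, and every KO effect below includes this difference. Effects in cells where hGFAP was active and in other cells cannot be told apart here. A human GFAP promoter is known to be active in astrocytes and in radial glia, whose descendants include neurons and glia, and the labels give neither the age of the mice nor whether each library is a separate animal. P-values therefore rest on the spread among libraries of a group, part of which may be technical.

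Glycolysis splits glucose to pyruvate, which is either reduced to lactate or taken into mitochondria and oxidised by pyruvate dehydrogenase. Several steps have isozymes that mark cell types in the brain. Enolase 2 (neuron-specific enolase, gene Eno2) replaces enolase 1 as neurons mature, aldolase C (Aldoc, the antigen zebrin II of some cerebellar neurons) is an abundant transcript of forebrain astrocytes, and enolase 3 (Eno3) is the muscle form. Pyruvate kinase M makes 2 enzymes from the gene Pkm by a choice between neighbouring exons. The upstream exon gives PKM1, the constitutively active form of differentiated cells such as neurons, and the downstream exon gives PKM2, the regulated form of proliferating cells and astrocytes.

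The exons are shown because they are what separates the PKM1 row of the tables from the PKM2 row. Each is 167 bases long on the plus strand of GRCm38 (exon 9 of Pkm at chr9:59675029-59675195 in transcript Pkm-202, exon 10 at chr9:59675568-59675734 in Pkm-201), and 64 of the 167 positions differ, an identity of 61.7%. Capitals mark the differing positions.
Pkm exon 9, PKM1: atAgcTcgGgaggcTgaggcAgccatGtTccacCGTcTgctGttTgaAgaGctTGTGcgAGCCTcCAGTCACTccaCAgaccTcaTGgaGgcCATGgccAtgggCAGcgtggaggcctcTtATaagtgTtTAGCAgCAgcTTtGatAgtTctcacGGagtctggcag
Pkm exon 10, PKM2: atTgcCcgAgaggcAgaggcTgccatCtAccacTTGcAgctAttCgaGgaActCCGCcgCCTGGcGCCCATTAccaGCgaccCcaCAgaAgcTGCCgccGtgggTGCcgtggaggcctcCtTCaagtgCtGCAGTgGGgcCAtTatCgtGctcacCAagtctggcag

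The promoters of Eno2 and Aldoc are shown because these genes gave the largest falls among the members in the DG. They are RefSeq windows of GRCm38.p6 from 250 bases before to 50 bases after the start, for Eno2 on the minus strand of chr6:124769624-124769923 and for Aldoc, the first of its 2 promoters in that table, on the plus strand of chr11:78322823-78323122. Capitals mark matches to the GC box GGGCGG or its reverse complement CCGCCC, and to ACGTG or its reverse complement CACGT, the core of hypoxia response elements. These motifs do not overlap each other in the windows shown.
Eno2 promoter: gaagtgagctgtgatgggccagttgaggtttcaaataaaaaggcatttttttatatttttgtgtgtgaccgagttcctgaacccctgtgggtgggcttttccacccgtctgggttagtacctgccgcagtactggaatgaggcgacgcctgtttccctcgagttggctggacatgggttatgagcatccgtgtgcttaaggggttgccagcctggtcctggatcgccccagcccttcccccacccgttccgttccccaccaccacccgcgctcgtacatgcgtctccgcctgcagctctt
Aldoc promoter: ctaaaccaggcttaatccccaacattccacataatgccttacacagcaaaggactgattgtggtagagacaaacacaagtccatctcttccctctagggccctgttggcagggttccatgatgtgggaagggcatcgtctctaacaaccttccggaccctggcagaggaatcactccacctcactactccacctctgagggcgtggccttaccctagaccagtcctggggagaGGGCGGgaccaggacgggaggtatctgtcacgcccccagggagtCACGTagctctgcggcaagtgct
The Aldoc window holds 1 match to each motif and 8 CpG sites, and the Eno2 window holds 0 matches and 15 CpG sites. The second Aldoc promoter (chr11:78323948-78324247) holds 0 matches to either motif and 3 CpG sites. Among the 33 members with a promoter in the RefSeq table, 18 (54.5%) hold ACGTG on either strand in at least 1 promoter, against 21.8% of 27025 genes and 19.6% of 32851 promoters. The GC box is in 23 of the 33 (69.7%), against 38.2% of the genes and 35.7% of the promoters. These are matches of letters, counted without regard to the KO.

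Levels are in FPKM, which counts fragments relative to transcript length and library size. Libraries are named a, b and c in column order, and these names pair nothing across groups. Depth, read from steps in the low values, was 48.7 to 65.6 reads per FPKM over 1 kb in the DG KO libraries and 26.7 to 42.1 in the DG control libraries. By this estimate every DG KO library was deeper. The estimate rests on 46, 105 and 76 low values in DG KO, fewer than the 353, 747 and 276 in DG control. It was 34.1 to 50.2 in SVZ KO and 36.9 to 45.9 in SVZ control. Dpy30 was at 6.22, 6.89 and 5.68 FPKM in DG KO, against 8.43, 8.38 and 10.1 FPKM in DG control (log2 fold change -0.46, limma adjusted p = 0.073; exact two-sided permutation p = 0.1, the smallest that 3 against 3 allow). In the SVZ the KO libraries a, b and c held 8.83, 5.04 and 4.87 FPKM, against 7.73, 8.25 and 9.43 FPKM in control (exact two-sided permutation p = 0.3). The SVZ library labelled KO a goes against its label by this measure. It also stood with the controls for 12 markers of myelinating oligodendrocytes, which summed to 4032 FPKM in it, 286 and 217 FPKM in SVZ KO b and c, and 3077 to 6223 FPKM in SVZ control. SVZ calls and fold changes of the members are given with and without it, and other SVZ values per library or over all 3 KO libraries as stated.

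In the DG, Eno2 and Aldoc fell and Eno3 rose in KO. These 3 of the 35 members passed a limma adjusted p of 0.05 (Benjamini-Hochberg over 15454 genes), beside 0.699% of all genes tested. All 35 members were above the low-value filter of 0.5 FPKM in both tissues. Of the members, 15 had a positive and 20 a negative log2 fold change, with a median of -0.05, beside a median of 0.09 over all genes tested. Scaling bears on the direction of the background. The 108 genes called in the DG were 52 higher and 56 lower in KO as deposited, 32 and 99 after median centring, and 43 and 86 after quantile normalization. The 3 members kept their directions and passed the threshold under both. With any 1 DG library left out, 0 of the 35 members and at most 3 of all genes passed. The log2 fold changes then ranged from -0.93 to -0.88 for Eno2, from -1.38 to -1.22 for Aldoc and from 0.74 to 0.85 for Eno3 (limma adjusted p from 0.051 to 0.21).

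Eno2 (ENSMUSG00000004267, chromosome 6 from 124760053 to 124769673 on the minus strand) was at 97.0, 91.0 and 97.6 FPKM in the DG KO libraries, against 179, 183 and 176 FPKM in the DG controls. The groups were far apart and tight, with means of 95.2 ± 3.65 in KO and 179 ± 3.81 in control (SD, n = 3). The log2 fold change was -0.91 (limma SE 0.07, adjusted p = 0.028). In the authors' deposited table, 2 of the 124 transcript rows of the members had an FDR at or below 0.05 in the DG, and both were Eno2 rows, Eno2-213 (FDR 0.027) and Eno2-203 (FDR 0.043). The SVZ part of the authors' deposited table had 0 such rows, with a lowest FDR of 0.45. With each DG transcript row tested alone by limma, neither Eno2-213 nor Eno2-203 passed (limma adjusted p = 0.074 and 0.087). Eno2-202 and Eno2-210 had positive log2 fold changes (0.06 and 0.27), and the other Eno2 rows had negative ones.

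Aldoc (ENSMUSG00000017390, chromosome 11 from 78322968 to 78327781 on the plus strand) was at 68.9, 75.1 and 81.8 FPKM in DG KO, against 164, 189 and 205 FPKM in DG control. KO lay below control in every library, with means of 75.3 ± 6.44 FPKM in KO and 186 ± 20.4 FPKM in control (SD, n = 3). The log2 fold change was -1.29 (limma SE 0.11, adjusted p = 0.028). The adjusted p was 0.058 when both tissues were fitted in 1 model. Aldoc has 2 main transcript rows, and both were lower to a like extent: Aldoc-201 had a log2 fold change of -1.27 and Aldoc-202 of -1.28. With each transcript row tested alone, 0.00319% of rows were called in the DG and neither Aldoc row passed (limma adjusted p = 0.074 for each).

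Eno3 (ENSMUSG00000060600, chromosome 11 from 70657202 to 70662513 on the plus strand) was at 2.97, 3.63 and 3.42 FPKM in DG KO, against 1.74, 1.39 and 1.44 FPKM in DG control. Every KO library was above every control, 2.19-fold in the ratio of means, with a log2 fold change of 0.78 (limma SE 0.10, adjusted p = 0.044). Its level was low beside the other enolases, and most of its FPKM in KO lay in the row Eno3-206, at 1.97 ± 0.065 FPKM in KO and 0.665 ± 0.10 FPKM in control (SD, n = 3). Tested alone among all transcript rows, Eno3-206 did not pass (limma adjusted p = 0.085).

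**Figure D1:**
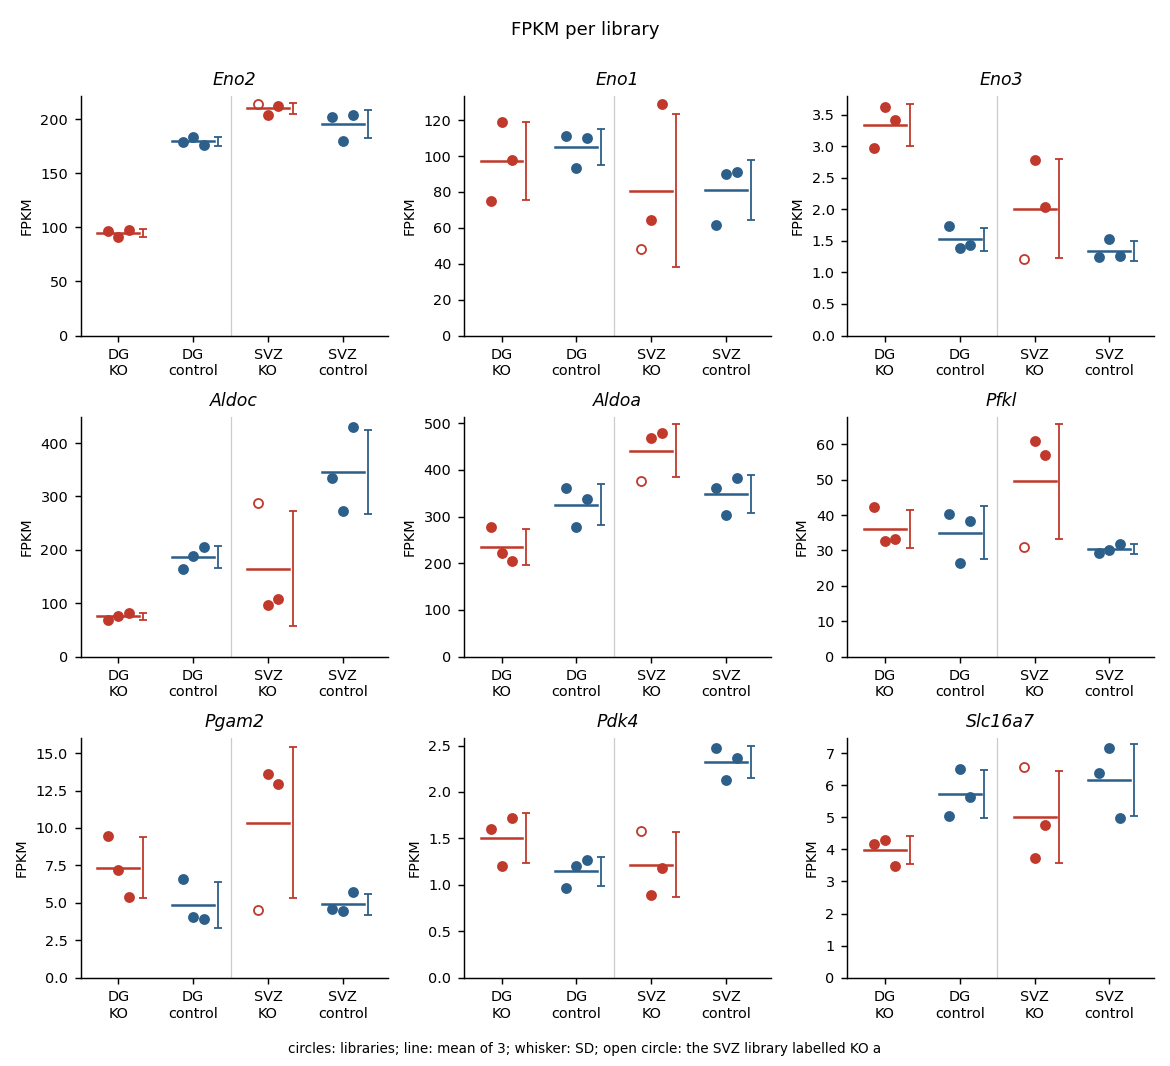
FPKM of 9 members in each library (circles), with the mean of 3 (line) and SD (whisker), DG on the left and SVZ on the right of each panel and KO left of control. The open circle is the SVZ library labelled KO a. Eno2 is lower in every DG KO library than in every DG control and level in the SVZ, whereas Aldoc is lower in KO in both tissues apart from that library. The tables of DG and SVZ were normalized separately, so levels are compared within a tissue.

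The first steps of glycolysis showed no call in the DG. The glucose transporters Slc2a1 (GLUT1 of endothelium and astrocytes) and Slc2a3 (GLUT3 of neurons) averaged 16.1 and 33.7 FPKM in DG KO, against 15.0 and 42.7 FPKM in DG control. Slc2a3 was at 42.1, 32.8 and 26.3 FPKM in KO, against 54.1, 39.6 and 34.4 FPKM in control, and its groups overlapped (log2 fold change -0.33, limma adjusted p = 0.37). Hexokinase 1, which traps glucose as glucose 6-phosphate, made up 98.2% of hexokinase FPKM in DG KO and 98.8% in DG control. Of the phosphofructokinases, which commit glucose to glycolysis, Pfkm was at 83.2, 77.0 and 79.6 FPKM in DG KO, against 93.3, 105 and 95.9 FPKM in DG control. The groups did not overlap and the adjusted p was 0.090. Pfkfb2 and Pfkfb3, which set the level of the phosphofructokinase activator fructose 2,6-bisphosphate, averaged 8.73 and 6.23 FPKM in KO, against 7.79 and 4.80 FPKM in control, also without overlap (limma adjusted p = 0.25 and 0.12).

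In the steps after phosphofructokinase, Aldoa, the most abundant aldolase, was at 278, 223 and 205 FPKM in DG KO, against 362, 277 and 337 FPKM in DG control. One KO library reached just past the lowest control, and the log2 fold change of -0.47 did not pass (limma adjusted p = 0.13). Triosephosphate isomerase (Tpi1) was at 164, 142 and 127 FPKM in KO, against 197, 163 and 184 FPKM in control, with a similar small overlap (log2 fold change -0.33, limma adjusted p = 0.155). Phosphoglycerate kinase (Pgk1) averaged 33.5 ± 3.12 FPKM in KO and 40.9 ± 2.82 FPKM in control (SD, n = 3), without overlap. The muscle phosphoglycerate mutase Pgam2 was at 9.44, 7.22 and 5.37 FPKM in DG KO, against 6.62, 4.06 and 3.92 FPKM in DG control. Its groups overlapped (log2 fold change 0.51, limma adjusted p = 0.22).

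Lactate dehydrogenase, which interconverts pyruvate and lactate, summed to 201 ± 6.30 FPKM in DG KO and 209 ± 8.67 FPKM in DG control (SD, n = 3). Its Ldha share, the form that favours lactate production, was 59.1% ± 4.24 in KO and 64.2% ± 5.69 in control. The neuronal monocarboxylate transporter Slc16a7 (MCT2) was at 4.16, 4.31 and 3.50 FPKM in DG KO, against 5.03, 6.51 and 5.63 FPKM in DG control. These groups did not overlap (log2 fold change -0.43, limma adjusted p = 0.090). The glial and endothelial transporter Slc16a1 (MCT1) averaged 19.5 FPKM in KO and 17.8 FPKM in control, with overlap. The mitochondrial pyruvate carrier genes Mpc1 and Mpc2 and the pyruvate dehydrogenase genes Pdha1 and Pdhb had log2 fold changes between -0.10 and 0.14. The kinases that switch pyruvate dehydrogenase off (Pdk1 to Pdk4) lay between -0.28 and 0.22, none called.

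Over the whole list, KO and control did not overlap for 10 of the 35 members in the DG, 3 above and 7 below. Over all genes tested this share was 33.7%, with 4002 above and 1209 below.

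**Figure D2:**
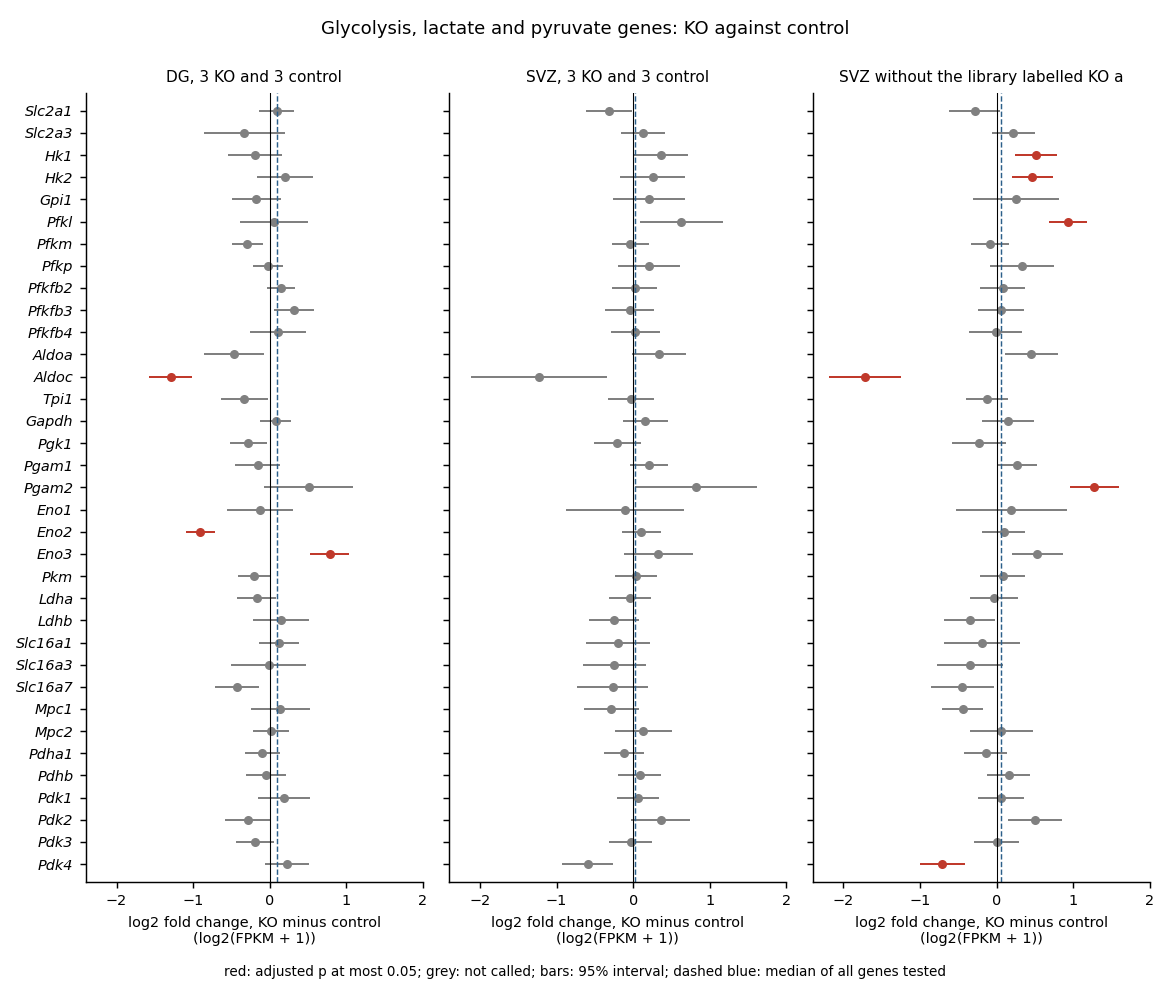
Log2 fold change of each member (circle) with its 95% interval (bar), KO minus control, from the top in the order of the pathway, in the DG, in the SVZ and in the SVZ without the library labelled KO a. Red marks members with adjusted p at or below 0.05, and the dashed line is the median of all genes tested. Aldoc is far to the left in all 3 panels, and Eno2 in the DG panel.

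The rows of the alternative exons of pyruvate kinase had unlike log2 fold changes in the DG, and neither row passed when tested alone. Pkm-202, the row with exon 9, was at 124, 118 and 110 FPKM in DG KO, against 151, 142 and 160 FPKM in DG control. KO lay below control in every library (log2 fold change -0.36, SE 0.09). Tested alone among all transcript rows its limma adjusted p was 0.145. Pkm-201, the row with exon 10, was at 93.3, 103 and 107 FPKM in KO, against 100, 95.9 and 105 FPKM in control, with full overlap. Pkm-202 made up 57.0%, 53.3% and 50.6% of the pair in DG KO, against 60.1%, 59.8% and 60.4% in DG control (exact two-sided permutation p = 0.1, the smallest possible). In the SVZ the share was 60.4%, 61.7% and 64.5% in KO, against 68.6%, 59.7% and 59.3% in control, and the groups overlapped (exact two-sided permutation p = 1). These rows are transcripts of 2041 and 2432 bases that share most exons, so their split is an estimate made by the authors' processing, whose method no source names.

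**Figure D3:**
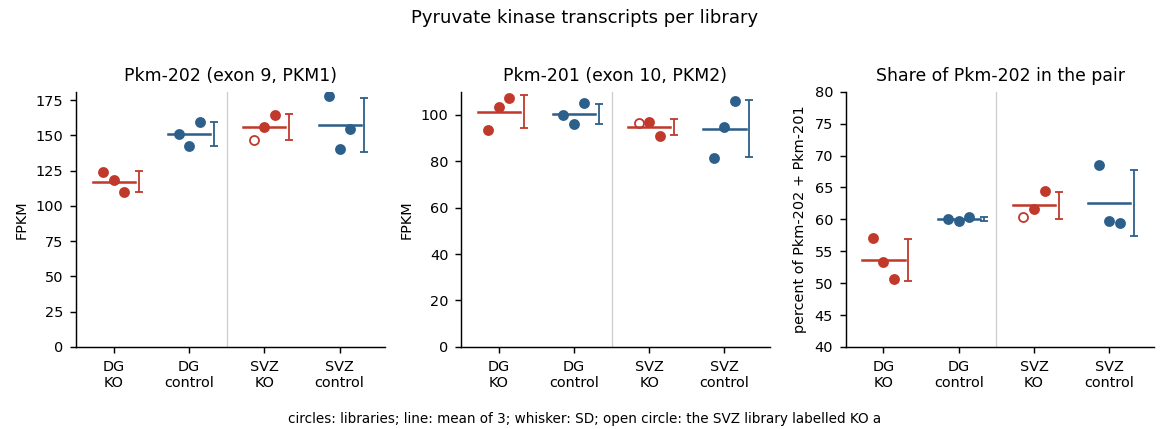
FPKM of Pkm-202 (exon 9, PKM1) and Pkm-201 (exon 10, PKM2) in each library, and Pkm-202 as a percentage of both, with the mean of 3 (line) and SD (whisker). The share axis starts at 40%. The DG KO libraries have less of Pkm-202, and Pkm-201 is level.

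In the SVZ with all 6 libraries, 0 of the 35 members passed the limma threshold, where 0.0066% of 15159 genes passed. At an unadjusted p under 0.05 there were 6 members, beside 12.6% of all genes tested. The median log2 fold change was 0.03 over the members and 0.03 over all genes. KO and control did not overlap for 4 members (Pgam1 and Eno2 above, Slc2a1 and Pdk4 below), where the share over all genes was 15.6%. Without the library labelled KO a, 6 members passed, 4 higher and 2 lower in KO, where 8.69% of all genes passed. The 1317 genes of that background were 638 higher and 679 lower in KO, and 502 higher and 890 lower after median centring. KO b and c lay outside the control range for 20 of the 35 members, where the share over all genes was 49.9%. The library labelled KO a was nearer to the control mean than to KO b and c for 25 of the 35 members. This was not counted over all genes, so it describes that library and is not a trait of the members.

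Aldoc was at 288, 97.5 and 108 FPKM in SVZ KO a, b and c, against 335, 274 and 430 FPKM in SVZ control. KO b and c were far below every control, and the library labelled KO a was inside the control range. With all 6 libraries the log2 fold change was -1.23 (limma SE 0.38, adjusted p = 0.37), and without the library labelled KO a it was -1.72 (limma SE 0.19, adjusted p = 0.0058).

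Pgam2 (ENSMUSG00000020475, chromosome 11 from 5801640 to 5803733 on the minus strand) was at 4.54, 13.6 and 12.9 FPKM in SVZ KO a, b and c, against 4.56, 4.47 and 5.72 FPKM in SVZ control. KO b and c averaged 2.70-fold the control mean, and the library labelled KO a sat among the controls. The log2 fold change was 0.82 over all libraries (limma adjusted p = 0.39) and 1.28 without the library labelled KO a (limma SE 0.13, adjusted p = 0.0048).

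The liver-type phosphofructokinase Pfkl (ENSMUSG00000020277, chromosome 10 from 77986947 to 78010083 on the minus strand) also had KO b and c above every control and the library labelled KO a inside the control range. It was at 30.9, 60.8 and 56.8 FPKM in SVZ KO a, b and c, against 29.2, 30.0 and 31.8 FPKM in SVZ control. Its log2 fold change was 0.63 over all libraries (limma adjusted p = 0.37) and 0.93 without the library labelled KO a (limma SE 0.10, adjusted p = 0.0055). Hk1 was at 81.4, 113 and 112 FPKM in these KO libraries, against 78.4, 84.7 and 72.8 FPKM in control. It passed when the library labelled KO a was left out (log2 fold change 0.52, limma adjusted p = 0.036), and under no setting with all libraries. Hk2, the inducible hexokinase, was low, at 0.671, 1.70 and 1.49 FPKM in KO, against 0.928, 0.778 and 0.925 FPKM in control, and also passed only then (log2 fold change 0.47, limma adjusted p = 0.044).

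Pdk4, the pyruvate dehydrogenase kinase induced by fasting and fat oxidation, was at 1.58, 0.885 and 1.18 FPKM in SVZ KO a, b and c, against 2.47, 2.13 and 2.36 FPKM in SVZ control. All KO libraries were below all controls, the library labelled KO a included. The log2 fold change was -0.59 over all libraries (limma SE 0.14, adjusted p = 0.37) and -0.71 without that library (limma SE 0.12, adjusted p = 0.018). Pdk2, the most abundant of these kinases here, was at 23.6, 32.6 and 32.0 FPKM in KO, against 20.7, 20.2 and 27.2 FPKM in control, and passed in neither fit (limma adjusted p = 0.40 and 0.079). Aldoa was at 376, 469 and 480 FPKM in KO, against 361, 302 and 382 FPKM in control, and Eno3 at 1.21, 2.78 and 2.03 FPKM in KO, against 1.25, 1.52 and 1.26 FPKM in control, and neither passed. Mpc1 was just outside the threshold without the library labelled KO a (log2 fold change -0.45, limma adjusted p = 0.050). Of the members' transcript rows tested alone without that library, 5 passed (Aldoc-201, Aldoc-202, Pfkl-201, Pgam2-201 and Gpi1-202), where 0.694% of all rows passed.

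Eno2 in the SVZ KO libraries was at 214, 204 and 212 FPKM, against 202, 180 and 204 FPKM in control. KO lay above control in every library, though the lowest KO and highest control were both at 204 FPKM when rounded. Its log2 fold change was 0.11 over all libraries and 0.09 without the library labelled KO a, at a limma adjusted p of 0.68 and 0.64. The KO effect on Eno2 therefore differed between the tissues: the difference of the log2 fold changes, DG minus SVZ, was -1.01 (95% interval -1.26 to -0.76, limma adjusted p = 0.028). It had the smallest p of 14922 genes tested for this difference, of which 0.0335% passed. Leaving out SVZ KO a gave -0.999 (limma adjusted p = 0.019). It did not pass when DG KO b, DG KO c, SVZ KO b, SVZ KO c or SVZ control c was left out (limma adjusted p from 0.058 to 0.12). Eno2 was the 1 member called, and Pdk4 joined it without the library labelled KO a. Pdk4 had a log2 fold change of 0.22 in the DG and -0.59 in the SVZ (difference 0.82, limma adjusted p = 0.10), and Aldoa of -0.47 and 0.34 (difference -0.81, limma adjusted p = 0.14). Without the library labelled KO a these differences were 0.93 for Pdk4 (limma adjusted p = 0.044) and -0.92 for Aldoa (limma adjusted p = 0.089). For Aldoc the difference was -0.06, with a wide 95% interval of -1.08 to 0.96, and 0.43 (-0.086 to 0.95) without that library, which turned its sign.

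Ratios of 2 members within a library are free of library scaling. Some set a neuronal form beside a glial or general form, and the others compare other pairs of members. With 9 ratios in each of 2 tissues, 18 exact two-sided permutation tests were run. None can go below 0.1, a value reached by 6 ratios in the DG and 3 in the SVZ, those whose groups did not overlap. Their Benjamini-Hochberg adjusted p over the 18 was 0.2.

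Eno2 over Eno1, on the log2 scale, was 0.37, -0.39 and -0.00079 in DG KO, against 0.69, 0.98 and 0.68 in DG control. Eno2 made up 49.1% ± 6.40 of enolase FPKM in DG KO and 62.8% ± 2.71 in DG control (SD, n = 3), and the enolase sum was 196 ± 19.4 FPKM in KO and 286 ± 7.04 FPKM in control. In the SVZ the log2 ratio was 2.15, 1.66 and 0.72 in KO, against 1.71, 1.01 and 1.16 in control, with overlap (difference in means 0.22, and -0.10 without the library labelled KO a). These values use the Eno1 rows alone, whose level is uncertain because reads can be shared with Eno1b and a pseudogene. Aldoc over Aldoa was -2.01, -1.57 and -1.32 in DG KO, against -1.14, -0.55 and -0.72 in DG control. In SVZ KO a, b and c it was -0.38, -2.27 and -2.16, against -0.11, -0.14 and 0.17 in SVZ control. Without the library labelled KO a, this ratio was 4.55-fold lower in SVZ KO than in control, and over all libraries 2.98-fold lower. Aldoc thus made up 24.5% ± 4.38 of aldolase FPKM in DG KO and 36.5% ± 4.80 in DG control (SD, n = 3).

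Eno2 over Aldoc sets the neuron-specific enolase against an aldolase abundant in forebrain astrocytes. Which cells of these samples held either transcript was not tested. In the DG, where both fell, the log2 ratio was 0.49, 0.28 and 0.26 in KO, against 0.13, -0.04 and -0.22 in control, a 1.31-fold higher ratio in KO. In the SVZ it was -0.43, 1.07 and 0.98 in KO a, b and c, against -0.73, -0.60 and -1.08 in control. That is 2.53-fold higher in KO over all libraries and 3.54-fold higher without the library labelled KO a. In the DG, Slc16a7 over Slc16a1, Pdk2 over Pdk1 and Pfkm over Pfkp were also lower in every KO library than in every control (differences in mean log2 ratio of -0.65, -0.51 and -0.27, the last -0.06 when the highest transcript row of each gene was used). For Pfkm over Pfkp the groups all but met, with the highest KO at 0.0572 and the lowest control at 0.0586. In the SVZ, Slc2a3 over Slc2a1 was higher in every KO library than in every control, by 0.47, and by 0.52 without the library labelled KO a. For Ldha over Ldhb and Hk1 over Hk2 the groups overlapped in both tissues.

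**Figure D4:**
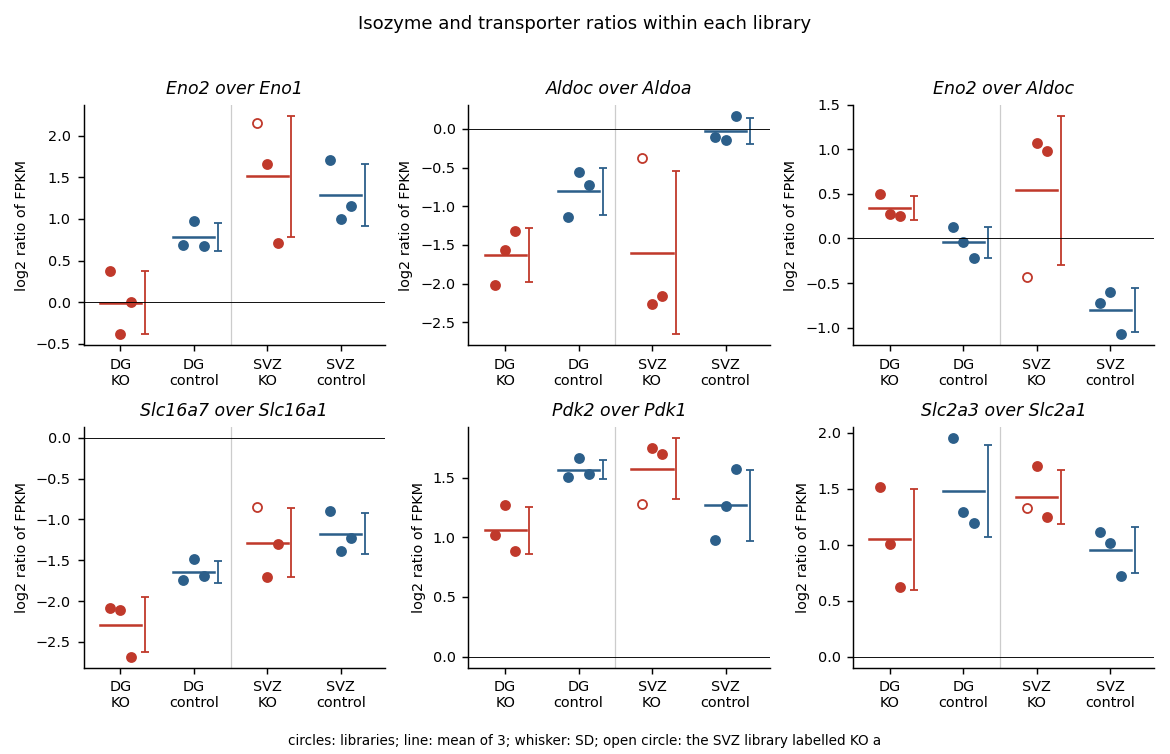
Log2 ratio of the FPKM of 2 members within each library (circles), with the mean of 3 (line) and SD (whisker), KO left of control. The open circle is the SVZ library labelled KO a. Eno2 over Eno1 is lower in DG KO and overlaps in the SVZ, and Aldoc over Aldoa is lower in KO in both tissues.

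In these bulk samples, fewer cells of a type and less of a transcript per cell cannot be told apart. Levels of neuron and astrocyte markers are therefore given beside Eno2 and Aldoc. The 12 neuron markers summed to 1592 to 2060 FPKM in DG KO and 2502 to 2879 FPKM in DG control, with 11 of 12 log2 fold changes negative (median -0.61) and 1 called, Grin1, a call lost with any 1 DG library left out. In the SVZ they summed to 2771 to 3158 FPKM in KO, the highest in the library labelled KO a, and 2800 to 2978 FPKM in control, with 6 of 12 negative and none called. Without the library labelled KO a, 1 of the 12 was called, lower in KO, where 8.69% of all genes passed. Their median log2 fold change was then -0.04. The 12 astrocyte markers summed to 557 to 584 FPKM in DG KO and 670 to 835 FPKM in DG control. Of these, 8 of 12 log2 fold changes were negative (median -0.25), none was called, and Gfap, Gjb6, S100b and Clu lay below control while Aldh1l1 and Sox9 lay above. In the SVZ the sums were 639 to 915 FPKM in KO and 954 to 1299 FPKM in control, with 12 of 12 negative (median -0.53). None of those was called over all libraries. Without the library labelled KO a, 5 were called lower in KO (Aqp4, Slc1a3, Gja1, Gjb6 and Clu), beside the same 8.69% of all genes. No marker of either list was missing from the tables. The part of these markers in the results for Eno2 and Aldoc was not tested.

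**Figure D5:**
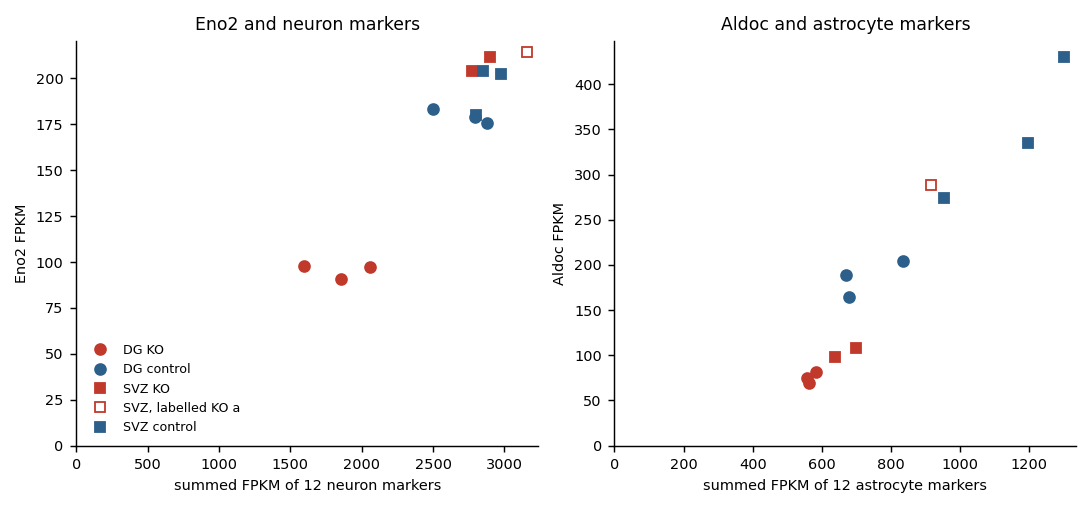
Eno2 FPKM against the summed FPKM of 12 neuron markers, and Aldoc FPKM against that of 12 astrocyte markers, 1 point for each of 12 libraries. The DG KO libraries (red circles) are apart at the lower left on the Eno2 side, and on the Aldoc side the DG KO libraries and SVZ KO b and c are together at the lower left. DG and SVZ tables were normalized separately.

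Markers of other cells were read in the same way. In the DG, 8 progenitor and cycling-cell markers summed to 433 to 830 FPKM in KO and 181 to 268 FPKM in control, and 5 blood genes to 1445 to 4124 FPKM in KO and 779 to 1217 FPKM in control, with no limma call in either list. Log2 fold changes were positive for 8 of 8 progenitor and cycling-cell markers (median 0.46) and 5 of 5 blood genes (median 1.15). The 6 fibroblast markers, 52.1 to 70.5 FPKM in DG KO and 19.5 to 62.2 FPKM in DG control, had 6 of 6 positive log2 fold changes. Myelinating oligodendrocyte markers were at 135 to 140 FPKM in DG KO and varied widely in DG control, at 250, 2461 and 737 FPKM. Of those tested, 10 of 11 log2 fold changes were negative (median -1.62) and none was called. The 6 neuroblast markers had 4 of 6 positive in the DG (median 0.16) and 3 of 6 in the SVZ (median -0.07), none called. In the SVZ without the library labelled KO a, 12 of 12 myelinating oligodendrocyte markers and 5 of 9 microglia markers were called lower. Of all genes, 8.69% passed there. The 9 endothelial markers summed to 49.5 to 56.2 FPKM in SVZ KO, all libraries included, and 60.7 to 79.7 FPKM in SVZ control. Of these, 9 of 9 log2 fold changes were negative (median -0.28) and none was called. In the DG they summed to 73.4 to 114 FPKM in KO and 75.5 to 90.7 FPKM in control, with 8 of 9 positive and none called. The 6 oligodendrocyte precursor markers summed to 111 to 176 FPKM in DG KO and 150.5 to 182 FPKM in DG control. Of these, 3 of 6 log2 fold changes were positive (median 0.0015) and 2 were called lower (Gpr17 and C1ql1), where 0.699% of all genes passed. With 1 DG library left out, 0 to 1 were called. Their part in the members' results was not tested.

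The genes whose DG levels followed Eno2 most closely over the 6 libraries, among 6144 genes at a mean of at least 10 FPKM, were Igsf8, Commd8, Hid1, Cadps2 and Epb41l1 (Pearson r 0.990 to 0.995). For Aldoc they were Gm6969, Hid1, Lynx1, Ly6e and Gm20683 (r 0.986 to 0.998). In the SVZ, those that followed Aldoc included Ptgr2, Arpc1b, Gnb5 and Cplx2 (r 0.994 to 0.996). Eno2, which varied little there, was followed by Gm6055, Bcl7b, Klhl34, Pitpnb and Ppp2cb (r 0.950 to 0.970). These correlations share the group difference and the libraries and are descriptions.

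The reads of 12 members could be shared with near-identical copies that the tables list apart. Glyceraldehyde 3-phosphate dehydrogenase (Gapdh) has 153 annotated pseudogene copies, 59 of them in the tables. Gapdh itself was at 48.8 ± 3.24 FPKM in DG KO and 46.1 ± 1.98 FPKM in DG control (SD, n = 3), while its copies summed to 775 and 885 FPKM. Gapdh thus held 4.50% to 6.96% of the joint FPKM in any library, and its level is uncertain. Eno1 held 17.7% to 31.7% of its joint FPKM with its copies and Eno1b, and Pgk1 21.9% to 26.2%. With the copies added, Pgk1 had a log2 fold change of -0.36 in the DG (limma adjusted p = 0.085) and Eno1 of 0.01. No such copy was found for Eno2, Aldoc, Eno3, Pgam2, Pfkl, Hk1, Hk2 or Pdk4, and the members called were the same in both tissues with all libraries.

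The rest of the pathway was counted in 6 lists that leave the members out. Of 17 tested genes of other glycolytic and pyruvate steps, 0 passed the limma threshold in the DG and 2 had an unadjusted p under 0.05 (median log2 fold change -0.01). That unadjusted threshold was met by 26.5% of all genes tested in the DG. Bpgm, which makes 2,3-bisphosphoglycerate, averaged 32.6 FPKM in KO and 25.2 FPKM in control, while Dlat, the acetyltransferase subunit of pyruvate dehydrogenase, averaged 21.0 FPKM in KO and 26.1 FPKM in control. Of 8 pentose phosphate genes 0 passed by limma, with a median of 0.24, and 3 were at an unadjusted p under 0.05. The phosphogluconate dehydrogenase gene Pgd was at 26.7, 25.3 and 25.1 FPKM in DG KO, against 19.6, 16.5 and 19.6 FPKM in DG control, and the lactonase gene Pgls averaged 26.3 FPKM in KO and 19.2 FPKM in control (limma adjusted p = 0.061 and 0.066). Of the 6 tested shuttle genes, which carry cytosolic NADH equivalents into mitochondria, 0 passed by limma, 6 had an unadjusted p under 0.05 and 6 of 6 were negative (median -0.43). The glycerol 3-phosphate dehydrogenase gene Gpd1 had the largest change of the 6 lists, at 5.25, 3.43 and 4.10 FPKM in DG KO, against 11.1, 8.31 and 14.7 FPKM in DG control (log2 fold change -1.22, limma adjusted p = 0.055). Its mitochondrial partner Gpd2 averaged 12.8 FPKM in KO and 18.7 FPKM in control (limma adjusted p = 0.081).

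Glycogen, citric acid cycle and regulator genes had 0 limma calls in the DG among 13, 17 and 10 tested, with 3, 4 and 5 at an unadjusted p under 0.05 and medians of 0.15, -0.06 and 0.12. Under the other settings at most 2 shuttle genes, 1 cycle gene and 1 regulator gene passed there. Pgm1 and Phkb of glycogen metabolism averaged 3.64 and 9.16 FPKM in KO, against 2.62 and 7.16 FPKM in control. Suclg2 and Mdh1 of the cycle averaged 4.20 and 132 FPKM in KO, against 2.61 and 168 FPKM in control. The prolyl hydroxylase gene Egln3 and Myc averaged 3.97 and 5.01 FPKM in KO, against 2.34 and 3.43 FPKM in control. In the SVZ 0 genes of the 6 lists passed by limma with all libraries, and 3 had an unadjusted p under 0.05, which 12.6% of all genes there had. Without the library labelled KO a, 2 of 12 tested glycogen genes and 1 of 6 shuttle genes were called, all lower in KO. The other lists had 0 calls, and 8.69% of all genes passed in that fit. Those called included Gpd2 (log2 fold change -0.67, limma adjusted p = 0.018) and the phosphorylase kinase gene Phka1 (-0.52, limma adjusted p = 0.032). Other SVZ differences of these lists over all libraries, from the genes with the largest change in each list, were 0.42 for Myc, 0.36 for Pgls, 0.35 for Mdh2, 0.33 for G6pc3, 0.28 for Slc2a4, 0.23 for Pgd, 0.20 for Sdhb, -0.19 for Vhl and 0.11 for Got2 on the log2 scale. These include no glycogen gene and do not give the direction of a list. Over all libraries, 8 of 12 glycogen genes (median -0.20) and 6 of 8 pentose phosphate genes (median -0.06) were negative. Medians were 0.0008 for other glycolytic and pyruvate steps, 0.03 for the cycle, 0.03 for the shuttles and 0.08 for regulators.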

How the data were processed

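Per tissue, the deposited table gives FPKM of 40483 transcripts in 6 libraries, which the authors had TMM-scaled, per the file names. The authors' comparison tables give, per the file headers, a p-value, an FDR and a signed fold change (a score, control over KO). Of these the FDR alone is quoted. Per the submitters' processing notes, CASAVA 1.8.4, TopHat2 2.1.0 and Partek were used with GRCm38 (mm10), and per the labels' protocols polyA+ RNA was sequenced. No source names the strand setting or how reads were shared between isoforms and copies, so genes overlapping on opposite strands may not be told apart. Rows of both kinds of table were joined by gene name and by group means within a relative difference of 0.0001. No read counts were used. Low FPKM values fell on steps worth 1 read, and 54.3% to 63.1% of them lay within 0.1 of whole reads, too few to recover reads, so depth is given as reads per FPKM.

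Sums per gene with a mean of 0.5 FPKM or more entered limma 3.58.1 (R 4.3.3, intensity trend) on the log2 scale with a pseudocount of 1, KO minus control in each tissue and, for the difference, in a model of the 4 groups, with p-values adjusted over all genes by Benjamini-Hochberg and a threshold of 0.05. Fold changes on this scale understate changes of low genes. The fit was checked on simulated data. Single values were tested by exact permutation (scipy 1.17.1). Copies were pseudogenes of GENCODE M21 matching a member with at least 90% identity over at least 200 bases (blastn 2.17.0). Promoters are from RefSeq, 33 of 35 members matched, and Slc2a3 and Slc16a7 were not used.

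The members, lists and tests were chosen with earlier results of these data known. Named members are Eno2, Aldoc, those called in either tissue and the 8 with the largest absolute log2 fold change in each tissue. Hk2, Mpc1, Pfkm, Pfkfb2, Pfkfb3, Pgk1, Slc2a1, Slc16a1, Gapdh and single markers were named after their values were seen. Pkm, Pgam1 and members given only by ranges, shares, ratios or transcript rows also lie outside that rule. The test of the Pkm exon share was not among the tests first planned. Of other lists, the genes called and the 2 with the largest change are named. A few genes that this rule would name are not reported here. Alternatives were another pseudocount (0.1), no filter or a minimum of 2 FPKM, median centring, quantile normalization, the highest transcript row, no trend, 1 model for both tissues and leaving out each library. Adding copies to the members, testing transcript rows alone, and scaling without the library labelled KO a were chosen after seeing the data.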

Additional observations from a re-analysis of the deposited data

Results flagged for a closer look

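The KO effect on Eno2 differed between the tissues. The log2 fold change, KO minus control, was -0.91 in the DG and 0.11 in the SVZ, and a test of the difference itself gave -1.01 (limma adjusted p = 0.028 over 14922 genes). Eno2 was lower in 3 of 3 DG KO libraries than in every DG control and higher in 3 of 3 SVZ KO libraries than in every SVZ control, there by a margin that vanishes on rounding (204 FPKM in both the lowest KO and the highest control). The difference ranged from -1.04 to -0.96 over fits that left out 1 library each (limma adjusted p from 0.014 to 0.12). The 12 neuron markers, of which 1 was called, summed to 1592 to 2060 FPKM in DG KO and 2502 to 2879 FPKM in DG control, and their part was not tested.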

How the results depend on the processing

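No paired analysis was possible because the columns of the FPKM tables name a group and no replicate number. In the DG, 108 genes were called, 241 with a minimum mean of 2 FPKM, 296 with both tissues in 1 model, 60 with the highest transcript row, 38 without an intensity trend, and 0 to 3 with 1 library left out. The members called in the DG were 3 under the other settings, except 2 with both tissues in 1 model (Aldoc lost) and 0 to 0 over the fits that left out 1 library. Their median log2 fold change of -0.05 moved to -0.11 with a minimum mean of 2 FPKM, to -0.12 with median centring, and to between -0.13 and -0.032 with 1 library left out. With median centring the DG median over all genes tested moved down as well, from 0.09 to 0.01. In the SVZ, 1 gene and 0 members were called. Leaving out 1 library gave 0 to 1317 genes and 0 to 6 members, the highest values without the library labelled KO a. Without that library, median centring gave 1392 genes and 6 members, quantile normalization 1348 and 7, and copies added 1340 and 7. Mpc1 was called under these 3 settings, and Hk2 was lost under median centring. For the difference of the KO effects, 5 genes were called, 2 with a pseudocount of 0.1, 15 with copies added, and 0 to 258 with 1 library left out. Members called there were 1, and 0 to 2 with 1 library left out. Eno2 in that difference ranged from -1.04 to -0.96 with 1 library left out. Eno2 in the SVZ was -0.039 with the highest transcript row, which reversed its sign. With 1 library left out, SVZ log2 ratios reversed for Eno2 over Eno1 (-0.10 to 0.61), Slc16a7 over Slc16a1 (-0.33 to 0.10), Hk1 over Hk2 (-0.34 to 0.089) and exon 9 over exon 10 of Pkm (-0.13 to 0.16). The causes were not tested, beyond fewer libraries or other genes entering a fit. With 3 libraries a group, low genes such as Hk2, Eno3 and Pdk4 rest on few reads.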
